A study of Mus musculus with 44 samples.

Results

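Camk2a, Camk2b, Camk2d and Camk2g, which encode the subunits of Ca2+/calmodulin-dependent protein kinase II (CaMKII), and Camk2n1, which encodes an endogenous CaMKII inhibitor, made up 5 of the 8203 genes in the expression table. They were chosen by name after Camk2n1 had been seen to stand out between extinguished and control mice, so the EXT vs. TA values of these genes are given here as a description, without a test. All 5 had a value in each of the 44 mice, as did all 8203 genes. RNA bound to ribosomes of corticotropin-releasing hormone (Crh) neurons was collected from amygdala punches by translating ribosome affinity purification (TRAP) and sequenced. Every mouse, controls included, was Crh-TRAP: first-generation progeny of a Crh-Cre transgenic line and a line with a Cre-dependent eGFP-L10a ribosomal protein, heterozygous for each, and 10 to 16 weeks old. The tone-alone group (TA, 16 mice, 10 male and 6 female) heard the training tones with the shock generator off. The fear-conditioned group (FC, 12 mice, 6 of each sex) received 5 tone-shock pairings and, like TA, was sacrificed after training. The extinction group (EXT, 16 mice, 10 male and 6 female) received the same pairings and, on the following day in another context, 30 tones without shock before sacrifice. Because EXT mice were taken a day later than TA and FC mice, extinction and the time since training cannot be told apart. A tag driven by Crh-Cre labels cells by the transgene and not by the Crh mRNA they hold at sacrifice.

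The effective library size, recovered from the deposited values, was 14649837 to 20440351 reads in TA (median 18015590), 13431032 to 19257786 in FC (median 16977973) and 12802113 to 17805609 in EXT (median 15412341). The lowest member count in any library was 272 Camk2g reads, so counting error was small beside the spread between mice. Batches 1, 2 and 5 held all 3 groups, whereas batch 3 (5 mice) and batch 4 (1 mouse) held EXT mice only, so for those 6 mice batch and group cannot be told apart. Of the defining genes of GABAergic and central amygdala neurons, 14 of 16 had a row, against 3 of 10 for excitatory neurons, 7 of 7 for astrocytes, 9 of 9 for oligodendrocytes, 4 of 6 for choroid plexus and none of the 6 for microglia and 3 for endothelium. The study kept only genes above a minimum level in all samples. A missing row therefore means that a gene fell short in at least 1 mouse, and the row counts do not measure cell content. The summed level of the GABAergic and amygdala list was 3356 to 7686 CPM (counts scaled to a common library size, median 5520) in TA. It was 3416 to 8432 (median 5083) in FC and 2042 to 8382 (median 4226) in EXT. In the EXT vs. TA fit with batch number and sex, 1 of its 14 genes was FDR-significant and higher and 5 lower. That fit called 21.4% of all 8203 genes, and with batch as categories 0.0244% were called. The summed choroid plexus markers were 187 to 27465 CPM (median 6543) in TA, 673 to 19373 (median 1624) in FC and 186 to 51048 (median 2609) in EXT. Astrocyte markers had medians of 1135, 1741 and 1654 in the same order, and 1 of the 7 was FDR-significant and higher in EXT vs. TA. Oligodendrocyte markers had medians of 3390, 3368 and 3796, and excitatory markers 119, 162 and 182. None of the oligodendrocyte, excitatory and choroid plexus markers with a row was FDR-significant in the EXT vs. TA fit. The part of these markers in the differences between groups was not tested. Crh itself spanned 4.80 to 7.17 log2 CPM in TA, 4.08 to 6.90 in FC and 3.15 to 6.31 in EXT. Punches pool cells, so fewer tagged cells and less RNA per cell cannot be told apart.

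CaMKII is a multimeric serine/threonine kinase assembled from the alpha, beta, gamma and delta subunits, which calmodulin switches on when Ca2+ enters a neuron. After activation the subunits phosphorylate one another on a threonine of the regulatory segment, which keeps the kinase active once Ca2+ has fallen, and in forebrain excitatory synapses this is a known step of synaptic potentiation and memory. The small proteins encoded by Camk2n1 and its relative Camk2n2 bind the active kinase and block its catalytic site.

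The coding sequences of both inhibitors are printed because Camk2n1 is the member that differed most between groups and its reads must be told from those of its relative. Capitals mark the 27 codons of the CaMKII-inhibitory region.
Camk2n1: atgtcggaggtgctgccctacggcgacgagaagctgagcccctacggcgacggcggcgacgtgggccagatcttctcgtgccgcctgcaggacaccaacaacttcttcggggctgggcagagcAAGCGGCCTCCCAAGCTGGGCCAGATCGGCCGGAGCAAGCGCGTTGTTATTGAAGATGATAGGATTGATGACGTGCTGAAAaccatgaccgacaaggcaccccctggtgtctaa
Camk2n2: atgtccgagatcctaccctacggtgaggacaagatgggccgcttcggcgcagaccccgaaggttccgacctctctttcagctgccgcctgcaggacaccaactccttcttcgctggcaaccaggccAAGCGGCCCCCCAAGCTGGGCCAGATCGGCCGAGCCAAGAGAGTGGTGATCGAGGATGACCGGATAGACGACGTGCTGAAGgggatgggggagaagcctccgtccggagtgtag
The region spans codons 42 to 68 of Camk2n1 and 43 to 69 of Camk2n2. Of the 27 codons, 26 encoded the same residue in both genes, while 66 of the 81 bases were identical. Camk2n1 lies on the plus strand at chr4:138454314-138460123 (GRCm38, GENCODE M21), where its single annotated transcript of 4444 bases holds 237 coding bases, 5.3% of its length. Camk2n2 lies on the minus strand at chr16:20619215-20621287, with 240 coding bases.

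The subunit genes lie apart from each other, Camk2b at chr11:5969644-6066362, Camk2d at chr3:126596302-126846326 and Camk2g at chr14:20734875-20794088 (GRCm38). No exon of another annotated gene overlapped their exons or those of Camk2n1. The 45 bases around the autophosphorylated threonine (codon in capitals) are given for 3 of them to show how close the paralogs are in the regulatory segment.
Camk2b: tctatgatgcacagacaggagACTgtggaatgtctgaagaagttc
Camk2d: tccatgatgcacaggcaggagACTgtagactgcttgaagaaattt
Camk2g: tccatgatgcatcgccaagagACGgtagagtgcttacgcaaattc
Camk2b and Camk2d shared 37 of the 45 bases, Camk2d and Camk2g 34, and Camk2b and Camk2g 30. Every pair of these stretches thus differed at several bases. The share of reads counted for another paralog is not known here.

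Camk2a, at chr18:60925618-60988152, completes the subunits. For the comparison of levels between genes, values were divided by length. Per kilobase of the longest coding transcript, Camk2b was the most abundant subunit in every mouse, with a median of 153 CPM per kilobase in TA (115 to 272), 142 in FC (69.9 to 198) and 131 in EXT (81.2 to 246). Camk2d and Camk2a followed. In TA the median was 45.5 for Camk2d (31.1 to 57.3) and 29.3 for Camk2a (20.8 to 38.2), with Camk2a the higher of the pair in 1 of 16 mice. In EXT neither was higher throughout, with medians of 28.2 for Camk2d and 29.9 for Camk2a and Camk2a higher in 6 of 16 mice. Camk2g, with medians of 7.53 in TA, 7.66 in FC and 7.42 in EXT, was the lowest member in all 44 mice. Camk2n1 passed from below Camk2d in all 16 TA mice to above it in 10 of 16 EXT mice on this scale. Its medians were 19.5, 24.7 and 36.0 CPM per kilobase in TA, FC and EXT. The place of Camk2d depended on the length used, because its annotated exons together cover 22493 bases. Per kilobase of all exons, Camk2d was below Camk2a in all 44 mice. On that scale it was above Camk2n1 in only 1 of 16 TA mice, 0 of 12 FC mice and 0 of 16 EXT mice. The crossing of Camk2n1 over Camk2d was therefore seen only with the longest coding transcript.

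**Figure D1:**
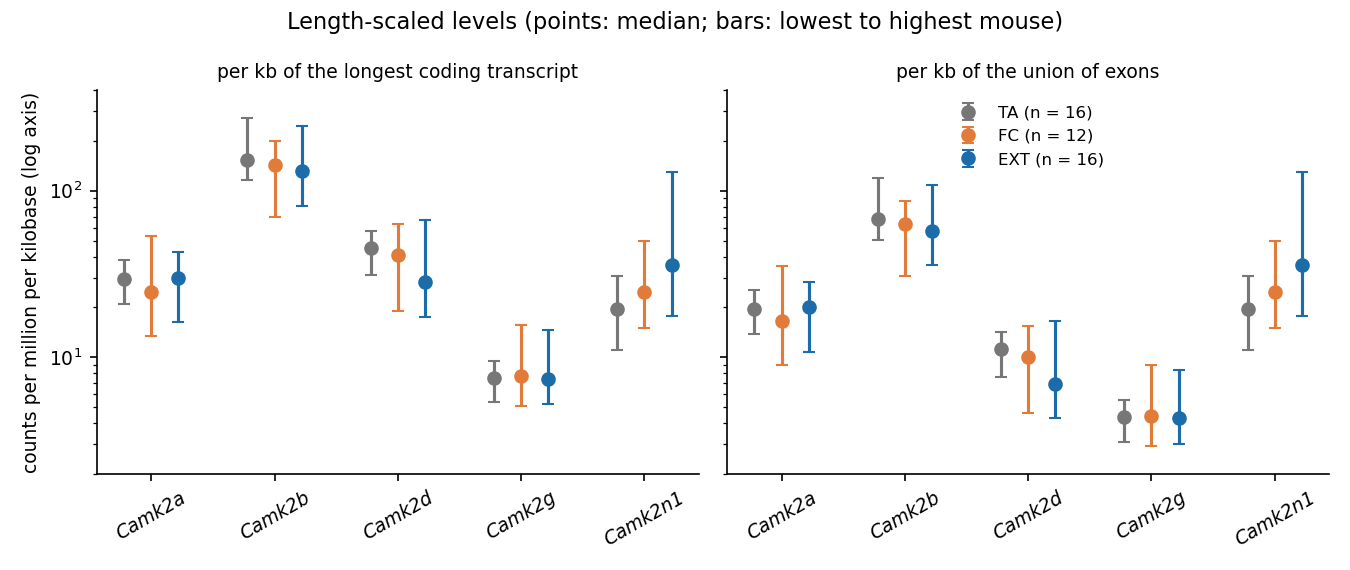
Levels of the 5 genes in CPM per kilobase (log axis), scaled by the longest coding transcript (left) and by the union of exons (right), for 16 TA, 12 FC and 16 EXT mice. Points are medians and bars run from the lowest to the highest mouse, with Camk2b the highest and Camk2g the lowest subunit by median on both scales.

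Within TA and within EXT, Camk2n1 varied more between mice than any subunit, whereas in FC Camk2d and Camk2a varied more (SD 0.60 and 0.59 against 0.54). Its level in TA ran from 5.61 to 7.10 log2 CPM with a median of 6.43, and in FC from 6.05 to 7.79 with a median of 6.78. In EXT it ran from 6.29 to 9.17 with a median of 7.31. The groups overlapped at their lower ends, but 11 of the 16 EXT mice exceeded every TA mouse and 7 exceeded every FC mouse. The 3 highest mice, EXT replicates 11 (9.17), 8 (8.91) and 5 (8.88), all came from batch 3, and the single batch 4 mouse stood at 8.40. Of the other 2 batch 3 mice, EXT replicate 2 had 8.04 and EXT replicate 3 had 6.80. In mean and SD, Camk2n1 was 6.44 ± 0.41 in TA (n = 16), 6.77 ± 0.54 in FC (n = 12) and 7.60 ± 0.92 in EXT (n = 16). EXT mice of batches 3 and 4 averaged 8.37 ± 0.87 (n = 6), and those of batches 1, 2 and 5 averaged 7.14 ± 0.60 (n = 10).

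Camk2d, the main subunit of heart muscle and also present in neurons, was low in most EXT mice. Its lowest, median and highest log2 CPM were 7.43, 7.97 and 8.31 in TA, 6.70, 7.82 and 8.44 in FC, and 6.59, 7.28 and 8.53 in EXT. Of the EXT mice 9 of 16 lay below every TA mouse, while 1, the same EXT replicate 3 that was low in Camk2n1, lay above all of them. Camk2b, the subunit that tethers the kinase to actin, ran from 8.86 to 10.1 in TA (median 9.27), 8.14 to 9.64 in FC (median 9.16) and 8.35 to 9.95 in EXT (median 9.04). These ranges overlapped broadly, with 5 EXT mice and 2 FC mice under the lowest TA mouse. Camk2a, the subunit that predominates in forebrain excitatory neurons, had medians of 7.19 in TA, 6.94 in FC and 7.22 in EXT. It ranged from 6.69 to 7.57 in TA, 6.06 to 8.05 in FC and 6.34 to 7.73 in EXT, so FC and EXT mice lay on both sides of the TA range. Camk2g, the fourth subunit, had medians of 4.80, 4.83 and 4.78 in TA, FC and EXT, and its groups overlapped broadly.

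**Figure D2:**
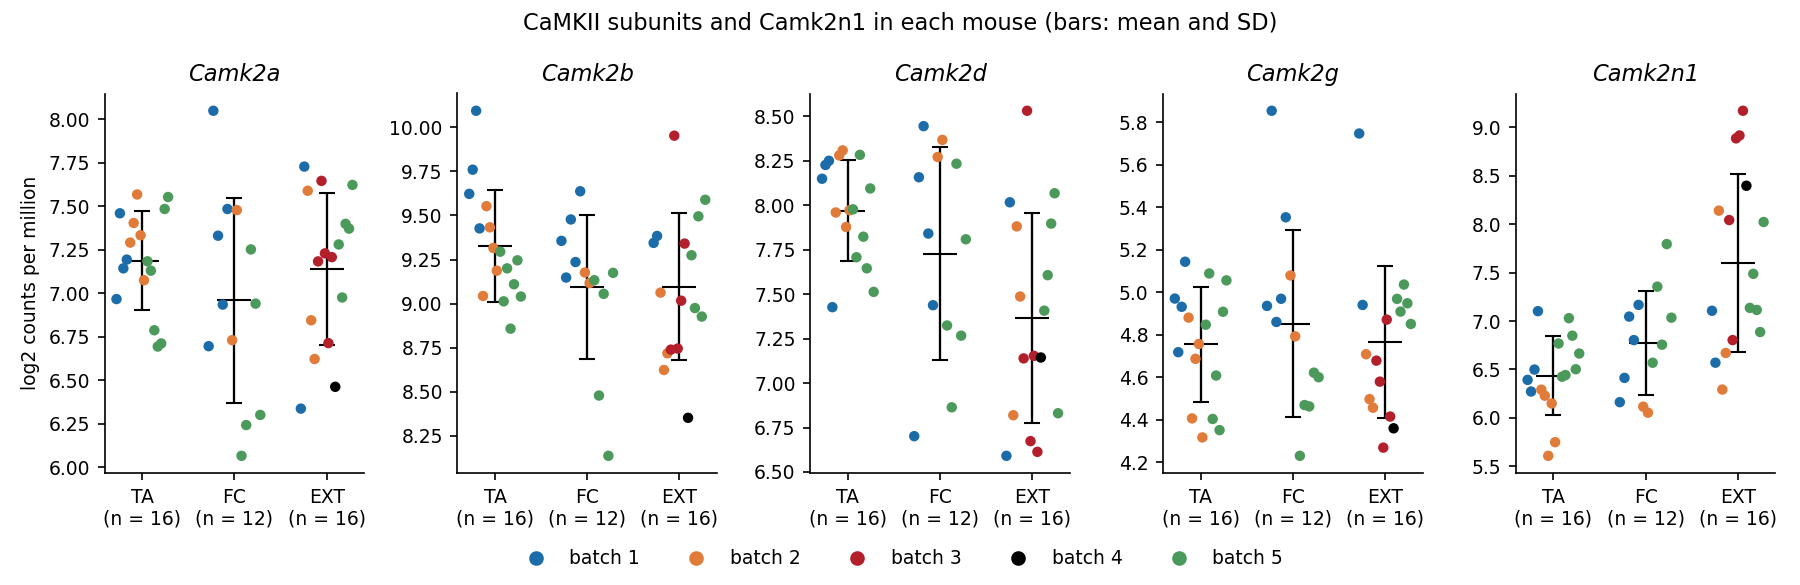
Level of each gene (log2 CPM) in the 16 TA, 12 FC and 16 EXT mice, 1 point per mouse coloured by batch, with the group mean and SD as black bars. The 3 highest Camk2n1 values (8.88 to 9.17) are batch 3 EXT mice, and most EXT mice lie low in Camk2d.

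EXT was compared with TA to ask what differed after extinction. The limma fits held batch number and sex as covariates. Batch number was a single straight-line term, which leaves in any batch difference that does not follow the numbering. In these fits Camk2n1 was 1.15 log2 units higher in EXT (SE 0.24), the largest difference among the 5 genes. Camk2d was lower, with a difference of -0.60 (SE 0.16). Camk2b differed by -0.22 (SE 0.12), Camk2a by -0.05 (SE 0.13) and Camk2g by 0.01 (SE 0.11). Camk2n1 and Camk2d, 2 of the 5, were FDR-significant in this fit, in which 21.4% of all 8203 genes were. Since the genes were picked on this contrast, nothing is read from that count. With batch entered as categories, the differences were 0.69 (SE 0.22) for Camk2n1 and -0.51 (SE 0.19) for Camk2d, none of the 5 was FDR-significant, and only 0.0244% of all genes were. With the log2 library size as a covariate they were 0.74 (SE 0.31) and -0.38 (SE 0.22).

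Within the batches that held both groups, Camk2n1 was higher in EXT in each. The difference was 0.27 (SE 0.33) in batch 1, 1.03 (SE 0.58) in batch 2 and 0.66 (SE 0.22) in batch 5. Camk2d was lower in each, by -0.71 (SE 0.74), -0.68 (SE 0.32) and -0.30 (SE 0.24) in the same order. For Camk2b the batches disagreed in direction, with -0.36 (SE 0.14) and -0.51 (SE 0.16) in batches 1 and 2 and 0.14 (SE 0.15) in batch 5. Batch 1 rested on 2 EXT and 4 TA mice, batch 2 on 3 and 5, and batch 5 on 5 and 7.

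**Figure D3:**
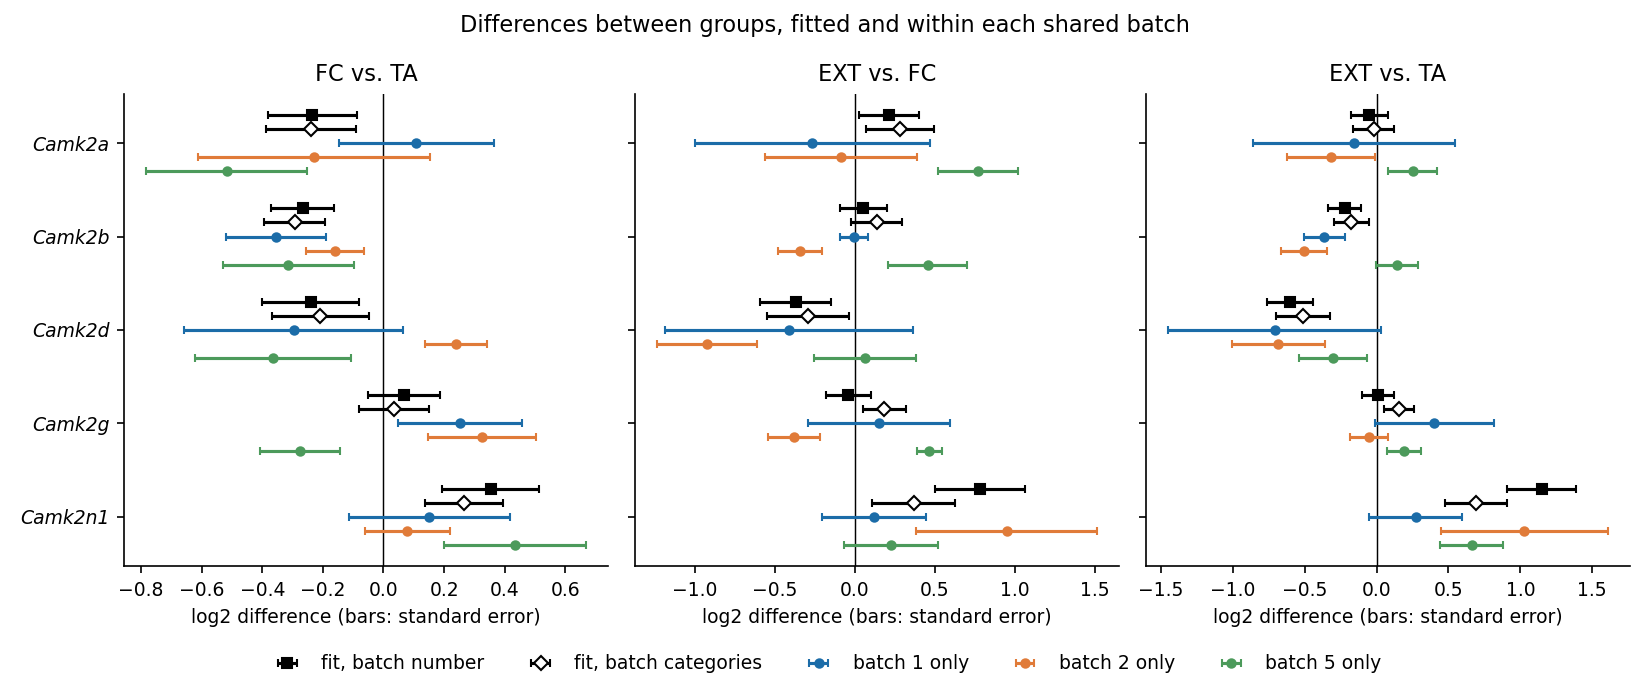
Log2 differences of the 5 genes for FC vs. TA, EXT vs. FC and EXT vs. TA, with standard errors as bars, from the fits with batch as a number (filled squares) or as categories (open diamonds) and within batches 1, 2 and 5 (coloured points). Camk2n1 lies to the right of 0 in every batch and contrast, from 0.08 to 1.03, and its EXT differences shrink when batch is entered as categories.

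FC was compared with TA to ask what conditioning alone changed, using the same TA mice as above. Their Camk2n1 levels are part of what picked that gene, so its FC vs. TA value is a description. No member was FDR-significant in this fit, and 0 of the 8203 genes were. At an unadjusted p under 0.05, where 853 genes (10.4%) passed, Camk2b was the only subunit that did. Camk2n1 was 0.35 log2 units higher in FC (SE 0.16), with 8 of 12 FC mice above the TA median. Camk2b was lower by 0.27 (difference -0.27, SE 0.10, limma p = 0.0159, adjusted p = 0.395), with 9 of 12 FC mice below the TA median. The difference was -0.24 for Camk2d (SE 0.16, 95% interval -0.57 to 0.09), -0.23 for Camk2a (SE 0.15, -0.53 to 0.06) and 0.07 for Camk2g (SE 0.12, -0.18 to 0.31), with adjusted p of 0.634, 0.609 and 0.895. Camk2n1 stood higher in FC within batches 1, 2 and 5, by 0.15 (SE 0.26), 0.08 (SE 0.14) and 0.43 (SE 0.23). Camk2b stood lower in all 3, with -0.36 (SE 0.17), -0.16 (SE 0.09) and -0.31 (SE 0.22). The batches disagreed for the other subunits. Camk2d gave -0.30 (SE 0.36), 0.24 (SE 0.10) and -0.36 (SE 0.26), Camk2a 0.11 (SE 0.26), -0.23 (SE 0.38) and -0.52 (SE 0.26), and Camk2g 0.25 (SE 0.21), 0.33 (SE 0.18) and -0.27 (SE 0.13).

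EXT was also set against FC, which shares the pairings but not the extinction tones. This comparison uses the EXT mice on which Camk2n1 was picked, so its Camk2n1 values are a description. Camk2n1 was 0.78 log2 units higher in EXT (SE 0.28) with batch as a number and 0.37 higher (SE 0.26) with batch as categories, and 13 of 16 EXT mice exceeded the FC median. Within batches 1, 2 and 5 its difference was 0.12 (SE 0.33), 0.95 (SE 0.56) and 0.23 (SE 0.29). None of the 5 members and 0 of 8203 genes were FDR-significant, while 1587 genes (19.3%) had an unadjusted p under 0.05. Camk2d differed by -0.37 (SE 0.22, limma adjusted p = 0.335), Camk2a by 0.21 (SE 0.19, adjusted p = 0.523), Camk2b by 0.05 (SE 0.15, adjusted p = 0.863) and Camk2g by -0.04 (SE 0.14, adjusted p = 0.888). In batch 5, Camk2a was higher in EXT by 0.77 (SE 0.25), but in batches 1 and 2 it differed by -0.27 (SE 0.73) and -0.09 (SE 0.47).

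Males and females were compared by an interaction term. The EXT vs. TA difference of Camk2n1 was 0.17 larger in males than in females (SE 0.50, limma adjusted p = 0.998), and that of FC vs. TA 0.09 larger (SE 0.33, adjusted p = 0.986). No member and 0 of 8203 genes were FDR-significant for either interaction, and 339 genes (4.13%) for EXT vs. TA and 540 (6.58%) for FC vs. TA had an unadjusted p under 0.05, with none of the 5 members among them. The widest sex difference among the members was that of Camk2d in FC vs. TA, 0.47 (SE 0.31, 95% interval -0.17 to 1.12, adjusted p = 0.827). These intervals are wide, and a sex difference of that size could have been missed.

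TA mice alone show how much the members moved between batches when training was the same. Camk2b was 9.73 ± 0.28 log2 CPM in batch 1 (SD, n = 4), 9.31 ± 0.20 in batch 2 (n = 5) and 9.11 ± 0.15 in batch 5 (n = 7; exact permutation p = 0.00124 over 1441440 arrangements). Camk2n1 was 6.57 ± 0.37, 6.01 ± 0.31 and 6.67 ± 0.23 in the same batches (exact permutation p = 0.00347). The sexes were not balanced over these batches. For Camk2a, Camk2d and Camk2g the exact permutation p was 0.325, 0.427 and 0.198. In a limma fit over all genes, Camk2b and Camk2n1 were FDR-significant between TA batches (adjusted p = 0.00183 and 0.00509), 2 of 5 members against 56.8% of all genes.

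Relations between the inhibitor and the subunits were examined within batch and group. The mean of each batch and group with at least 3 mice was subtracted, leaving 39 mice and no group difference. Camk2d was lower in mice with more Camk2n1 than others of their batch and group, with Pearson r = -0.609 (permutation p = 0.00279) and Spearman rho = -0.536 (permutation p = 0.00327). Without the 2 mice farthest from the median of Camk2n1, r was -0.442. The other subunits showed no relation past the threshold in these 4 tests. For Camk2b r was -0.272 and rho -0.082 (permutation p = 0.242 and 0.675), for Camk2a 0.034 and 0.068 (permutation p = 0.865 and 0.724), and for Camk2g 0.052 and 0.134 (permutation p = 0.753 and 0.431).

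The relation with Camk2d was not alike in all mice. By group, r was -0.922 over 13 EXT mice, -0.589 over 16 TA mice and 0.023 over 10 FC mice. By batch, r was -0.622 over 17 mice of batch 5, -0.859 over 8 of batch 2 and -0.942 over 5 of batch 3, against 0.085 over 9 of batch 1. FC replicate 3 of batch 1 lay low in both genes, at -0.56 for Camk2n1 and -1.01 for Camk2d from its batch and group mean. It enters both the FC and the batch 1 values, and r without it was not computed. Differences between these r values were not tested. Without batch 3, r was -0.433 (34 mice, permutation p = 0.0429). In a limma fit over all genes, the slope of Camk2d on Camk2n1 was -0.57 (SE 0.13, adjusted p = 0.00202), and 23.2% of all 8202 other genes had an FDR-significant slope. Without batch 3 it was -0.44 (SE 0.17, adjusted p = 0.125) with 4.44% of genes. Camk2d ranked 200th from the lowest r of these genes, and 6.12% of them had an r at least as far from 0. Over the same 39 mice the summed oligodendrocyte markers had r = -0.494 with Camk2d and 0.270 with Camk2n1, the choroid plexus markers -0.449 and -0.074, the GABAergic and amygdala markers 0.072 and -0.325, and library size 0.236 and -0.449. The part of these in the relation was not tested. With library size regressed out within batch and group, added after seeing the data, r of Camk2d and Camk2n1 was -0.580 (permutation p = 0.00141).

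**Figure D4:**
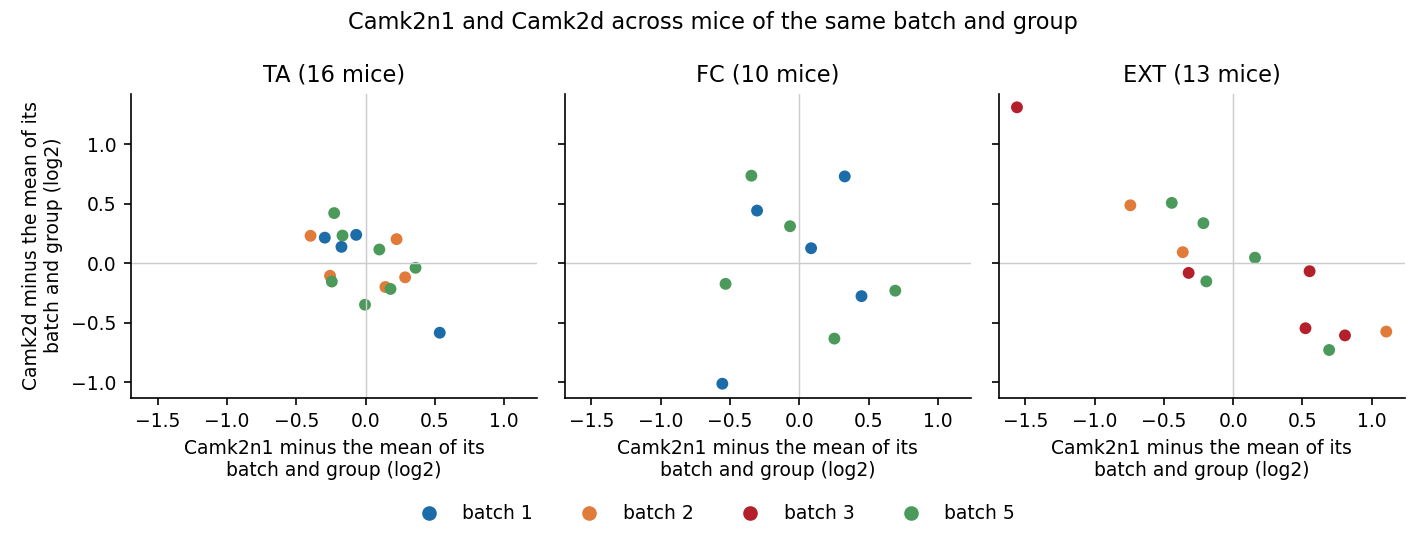
Camk2d against Camk2n1, each as its log2 value minus the mean of the mouse's batch and group, for 16 TA, 10 FC and 13 EXT mice coloured by batch. The points fall from upper left to lower right in EXT (r = -0.922) and TA (r = -0.589). In FC r was 0.023, with 1 mouse of batch 1 low in both genes (Camk2n1 -0.56, Camk2d -1.01).

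The genes most like Camk2n1 by the same measure over 39 mice were Purb (r = 0.839), Rpl31 (0.830), Pantr1 (0.822), Vti1b (0.812) and Mpp6 (0.805). Those least like it were Kat7 (-0.789), Plekhb2 (-0.778), Dcaf12l1 (-0.776), Tspyl3 (-0.763) and Ccar2 (-0.757). None is a CaMKII gene. The paralog Camk2n2 had r = 0.461 and ranked 900th from the highest. Among the subunits, Camk2a and Camk2g were the pair most alike (r = 0.487), followed by Camk2b and Camk2d (0.333).

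Camk2n1 reads were also set against the summed reads of the 4 subunits in each mouse, a score over the members that is given as a description. Lengths differ between the genes, so the ratio compares mice and is not a molar ratio. Camk2n1 reads amounted to 3.99 to 16.0% of subunit reads in TA (median 8.23%), 6.09 to 38.1% in FC (median 11.03%) and 7.05 to 67.5% in EXT (median 18.3%). The 4 mice above 58% were EXT mice of batches 3 and 4, and EXT replicate 3 of batch 3 was the lowest of its group. Averaged over batches 1, 2 and 5, the log2 ratio was 0.50 higher in FC than in TA (1.42-fold), 0.87 higher in EXT than in TA and 0.30 higher in EXT than in FC. The FC vs. TA difference was 0.39 (SE 0.32), 0.12 (SE 0.19) and 0.77 (SE 0.39) in batches 1, 2 and 5. FC replicates 2 and 10, both of batch 5, stood at 28.7% and 38.1%, and the next FC mouse at 14.5%. In batch 5 the log2 ratio was 0.18 lower in EXT than in FC, with a difference of -0.18 (SE 0.41).

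The make-up of the subunit reads is given as shares of reads not divided by length, which compare groups and not genes. Camk2b gave 60.0% ± 4.2 of subunit reads in TA (SD, n = 16), 59.2% ± 8.3 in FC (n = 12) and 61.4% ± 6.3 in EXT (n = 16). Camk2d gave 23.6% ± 3.3, 23.6% ± 6.0 and 19.4% ± 6.3, and Camk2a 13.8% ± 2.7, 13.96% ± 4.4 and 16.0% ± 3.3 in the same order. Camk2g gave 2.59% ± 0.63 in TA, 3.20% ± 0.84 in FC and 3.15% ± 0.95 in EXT.

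**Figure D5:**
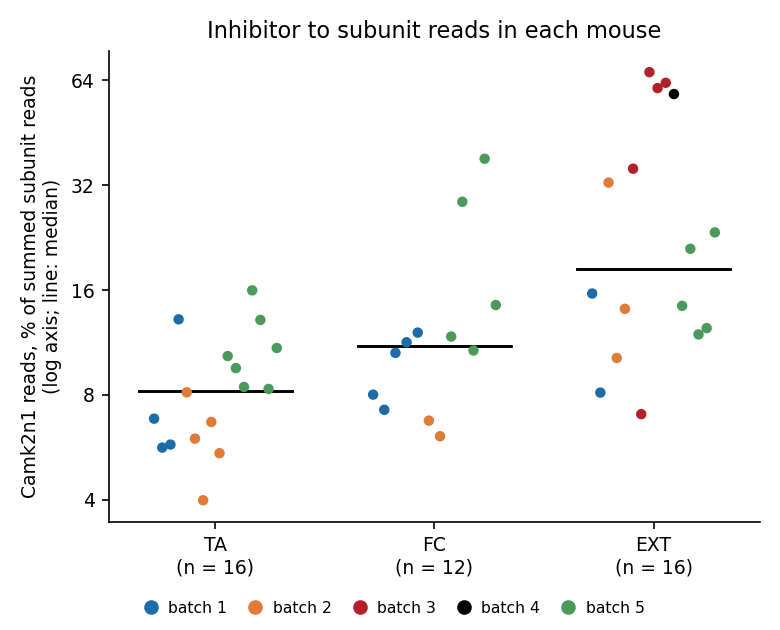
Camk2n1 reads as a percentage of the summed reads of the 4 subunits (log axis) in the 16 TA, 12 FC and 16 EXT mice, 1 point per mouse coloured by batch, with the group median as a line. Medians rise from 8.23% in TA to 18.3% in EXT, and the EXT mice of batches 3 and 4 hold both the highest value (67.5%) and the lowest (7.05%) of their group.

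Other genes of the pathway were read from fixed lists of calmodulins, related kinases, phosphatases, synaptic partners and Ca2+ channels and pumps, of which 56 of 71 had a row. In EXT vs. TA 10 of the 56 (17.9%) were FDR-significant, 4 higher and 6 lower, against 21.4% of all genes. With batch as categories, without batches 3 and 4, or with library size as a covariate, none of the 56 was. In FC vs. TA and EXT vs. FC none was FDR-significant in the fit with batch number. At an unadjusted p under 0.05, 7 of the 56 passed in FC vs. TA, where 10.4% of all genes did, and 10 in EXT vs. FC, where 19.3% did, both near the share over all genes.

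Of the other CaM kinases and the second inhibitor, 4 of 10 genes were FDR-significant and lower in EXT than in TA and none FDR-significant and higher, in the fit that called 21.4% of all genes. Camk1g, a CaM kinase I, ran from 6.67 to 7.69 log2 CPM in TA (median 7.43) and 5.22 to 7.76 in EXT (median 6.60). Its difference was -0.75 (SE 0.19, limma adjusted p = 0.0146). Pnck, also of the CaM kinase I family, differed by -0.44 (SE 0.15, adjusted p = 0.0381), the kinase-like protein Camkv by -0.30 (SE 0.09, adjusted p = 0.0260) and Camkk1, an upstream activator of CaM kinases I and IV, by -0.29 (SE 0.09, adjusted p = 0.0277). With batch as categories these were -0.41, -0.29, -0.17 and -0.25, with adjusted p from 0.168 to 0.296. Camk2n2 had a median of 5.87 log2 CPM in TA and 6.25 in EXT and was not FDR-significant.

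Of the 20 synaptic partners and substrates with a row, 2 were FDR-significant and higher in EXT and 2 FDR-significant and lower in the same fit, against the 21.4% of all genes. The other 16 did not pass the threshold. Cacng2, the AMPA receptor auxiliary subunit stargazin, differed by 0.57 (SE 0.17, limma adjusted p = 0.0193) and Gria1, the AMPA receptor subunit that CaMKII phosphorylates, by 0.43 (SE 0.15, adjusted p = 0.0438). Syn1, a synaptic vesicle protein, differed by -0.51 (SE 0.14, adjusted p = 0.0166) and Mapt, the microtubule protein tau, by -0.34 (SE 0.12, adjusted p = 0.0464). With batch as categories these were 0.42 for Cacng2, 0.18 for Gria1, -0.45 for Syn1 and -0.12 for Mapt, with adjusted p of 0.186, 0.487, 0.149 and 0.570. Among 7 calmodulin genes and calmodulin-binding proteins, Pcp4 alone passed, at 0.56 (SE 0.20, adjusted p = 0.0492). Among 13 phosphatase genes, Ppp1ca, a catalytic subunit of protein phosphatase 1, alone passed, at 0.34 (SE 0.10, adjusted p = 0.0179). With batch as categories, Pcp4 differed by 0.47 (adjusted p = 0.196) and Ppp1ca by 0.25 (adjusted p = 0.181). None of the 6 Ca2+ channel, store and pump genes passed, the smallest p being that of Atp2a2 (difference -0.24, SE 0.16, adjusted p = 0.280).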

How the data were processed

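The table holds TRAP RNA-seq values of 44 mice. Per the labels and the study's methods, the authors trimmed 50-base paired reads with Trimmomatic 0.36, mapped them to GRCm38 with STAR, filtered and normalized counts with edgeR and deposited log2 CPM values (counts scaled to library size) from limma's voom. The deposited log2 values were analysed as they stand. All 360932 of them gave a whole number of reads (within 0.05) after removal of the offset of 0.5, which yielded the effective library sizes.

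Groups, batch and sex came from the labels, and the sex labels of the EXT mice could not be checked from expression. Each pair of groups was fitted with limma 3.58.1 (R 4.3.3) over all 8203 genes, with batch number and sex as covariates. Batch number entered as a single straight-line term. Adjustment was by Benjamini-Hochberg over all genes (FDR under 0.05). The fits, the permutation tests and the recovery of reads were tested on simulated data. Permutation tests used 100000 resamples within batch and group, or every arrangement for TA batches, and were two-sided. Genes named besides the members were the pathway genes past the FDR threshold in any fit, otherwise the 2 smallest p per list, and the 5 genes at each end of likeness to Camk2n1. Members, lists and tests were chosen with earlier results of these data known. Alternatives are in the closing section. Gene models and sequences came from GENCODE M21. Separate mice were the replicates.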

Additional observations from a re-analysis of the deposited data

Results flagged for a closer look

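Within each group and sex (6 to 10 mice), 36 sets of values of the 5 genes and of the inhibitor to subunit ratio were examined. A mouse set apart from the others was found in 4. Chance gives about 1 in 20 for a single set, but the sets share mice and the ratio contains the genes. The count is therefore not read against chance. Camk2a was lowest in EXT replicate 6, a female of batch 1, at 6.34 log2 CPM against 7.21 in the next female. Camk2b was highest in EXT replicate 3, a female of batch 3, at 9.95 against 9.38, and this mouse also had the highest Camk2d value of all 44 (8.53). In FC replicate 2, a female of batch 5, Camk2b was lowest of the FC females at 8.48 against 9.13, and the log2 ratio of Camk2n1 to summed subunit reads was highest at -1.80 against -3.09. The cause of these values was not tested.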

How the results depend on the processing

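The FC vs. TA and EXT vs. FC differences of Camk2n1, Camk2d and Camk2a kept their direction in all the alternatives run, none FDR-significant, but their size moved. Leaving aside the fits without 1 mouse, Camk2n1 was 0.26 to 0.36 in FC vs. TA and 0.28 to 0.81 in EXT vs. FC. Camk2d was -0.26 to -0.15 in FC vs. TA and -0.39 to -0.06 in EXT vs. FC, the last with library size as a covariate. Camk2a was -0.42 to -0.22 and 0.19 to 0.53, reaching -0.42 and 0.53 with array weights. EXT vs. TA gave 0.67 to 1.17 for Camk2n1 and -0.63 to -0.38 for Camk2d. Differences near 0 changed sign. Camk2g in FC vs. TA was -0.046 with array weights and -8.5e-05 to 0.11 leaving out 1 mouse. In EXT vs. FC, Camk2g was 0.18 with batch as categories, 0.11 without batches 3 and 4, 0.21 with array weights, 0.055 with library size as a covariate and -0.112 to 0.023 leaving out 1 mouse, and Camk2b was -0.034 to 0.114 leaving out 1 mouse. The r of Camk2n1 and Camk2g was -0.012 with library size regressed out. The slope of Camk2d on Camk2n1 without batches 3 and 4 was -0.44 and no longer FDR-significant.

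FDR-significant genes in EXT vs. TA numbered 1755 with batch number as a straight-line term and 1614 with no batch term. The count was 2 with batch as categories, 3 without batches 3 and 4, and 5 with array weights. It was 0 with library size as a covariate and 1079 to 2209 leaving out 1 mouse. EXT replicates 1, 2, 5 and 11 each moved that count by over 1.5 times when left out (1144 or fewer). In EXT vs. FC the count was 0, but 17 with all 3 groups fitted together, 12 with array weights and 0 to 1 leaving out 1 mouse, and in FC vs. TA it was 0 to 2 leaving out 1 mouse. Pathway genes in EXT vs. TA numbered 10, but 0 with batch as categories, without batches 3 and 4, or with library size. Voom weights from the recovered reads gave 1771, 0 and 0 FDR-significant genes in EXT vs. TA, FC vs. TA and EXT vs. FC. No paired analysis was possible because replicate numbers were given in accession order and link no mice across groups. Voom weights, the tests with library size removed from the correlations and pathway counts, the pathway counts without batches 3 and 4, the fits over all genes for TA batches and for slopes, and the ratio to Camk2d alone were added after seeing the data. Each member was counted at least 272 times in every library, so counting error was small. Library size still differed between the groups, and with it as a covariate Camk2n1 in EXT vs. FC went from 0.78 to 0.28. The precision was limited by the spread between mice and by the number of mice in the batches that groups share.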
